A study of Homo sapiens with 6 samples.

Results

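Promoters that carried lysine acetylation (Kac) but had no lysine benzoylation (Kbz) peak nearby were described in cells given by the study as HepG2. HepG2 is an immortal line that was grown out of a liver cancer. A promoter belonged to this set when the canonical transcription start site (TSS) of its protein-coding gene lay under a Kac peak both in control cells and in cells given sodium benzoate (SB, 10 mM for 24 h), with no Kbz peak of the SB-treated cells within 3 kb of that TSS. Of 19970 protein-coding promoters on 23 chromosomes, 11159 were Kac-marked in both conditions, and 704 of these lacked Kbz, which is 6.31% of the Kac-marked promoters. The other 10455 had Kbz within 3 kb, of which 8966 had it over the TSS and 1489 beside it. The members were chosen by the peak calls themselves, so their lack of Kbz is no finding, and their Kac values are given as a description with no test.

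The series held 6 ChIP-seq libraries, 1 for each of 6 groups: input, Kac and Kbz from untreated control HepG2 cells and from SB-treated HepG2 cells. Peak lists of the control Kac, SB Kac and SB Kbz libraries were used. The labels state that no peaks were called for the control Kbz library, so Kbz had no untreated counterpart here, and the input libraries were not analysed here. With 1 library per group there was no replicate error and no test, and the Wilson 95% intervals below cover counting error only.

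Histone acetylation neutralises the charge of lysines on histone tails and is found at active promoters and enhancers. Benzoylation is a bulkier aromatic acylation of the same residue type, and sodium benzoate is the salt from which cells can form the benzoyl-CoA that donates the group. Many promoters of widely expressed genes lie in CpG islands, stretches that keep a high density of the dinucleotide CG, while promoters of tissue-restricted genes more often lack them. Both antibodies were pan antibodies, so neither the histone nor the residue under a peak is known.

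The sequences just before the TSS show the range of CpG content among the members. The CpG content of a promoter is given as observed over expected CpG (the number of CG dinucleotides over the number expected from the C and G content) in the 300 bases from 250 before the TSS to 50 after it. Below are the 200 bases before the TSS in hg38, read 5′ to 3′ on the strand of the gene, with each CG in capitals. First come the 3 members with the highest SB Kac fold: RNF111 (chr15:58987463-58987662, plus strand), BMF (chr15:40108880-40109079, minus strand) and C6orf118 (chr6:165309606-165309805, minus strand).
RNF111: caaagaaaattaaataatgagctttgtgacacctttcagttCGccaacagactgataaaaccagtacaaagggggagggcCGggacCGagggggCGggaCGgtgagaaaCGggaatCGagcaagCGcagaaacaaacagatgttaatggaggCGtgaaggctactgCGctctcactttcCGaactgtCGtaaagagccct
BMF: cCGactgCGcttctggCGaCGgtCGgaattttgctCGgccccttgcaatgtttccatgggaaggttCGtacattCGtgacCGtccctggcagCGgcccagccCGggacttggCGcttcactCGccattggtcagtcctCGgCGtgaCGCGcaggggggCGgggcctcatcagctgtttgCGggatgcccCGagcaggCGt
C6orf118: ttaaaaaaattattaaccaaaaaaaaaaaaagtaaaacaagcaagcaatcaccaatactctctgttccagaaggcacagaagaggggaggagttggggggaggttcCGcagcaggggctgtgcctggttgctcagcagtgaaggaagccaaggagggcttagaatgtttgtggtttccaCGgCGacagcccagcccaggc
These hold 12, 21 and 3 CG dinucleotides. So even the strongest Kac peaks of the set lay over CpG-rich and CpG-poor sequence alike.

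Next come 3 members with few CpG for their base content, picked from those at or above the members' median SB Kac fold: NR5A2 (chr1:200027510-200027709, plus strand), B3GNT6 (chr11:77034198-77034397, plus strand) and KRTAP19-1 (chr21:30480368-30480567, minus strand).
NR5A2: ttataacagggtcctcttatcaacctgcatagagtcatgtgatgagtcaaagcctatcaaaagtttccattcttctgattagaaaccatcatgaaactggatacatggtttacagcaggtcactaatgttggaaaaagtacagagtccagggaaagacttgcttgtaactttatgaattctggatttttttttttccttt
B3GNT6: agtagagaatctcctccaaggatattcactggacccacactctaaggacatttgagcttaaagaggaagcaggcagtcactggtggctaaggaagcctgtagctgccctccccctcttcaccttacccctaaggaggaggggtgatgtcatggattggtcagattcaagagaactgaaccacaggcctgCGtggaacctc
KRTAP19-1: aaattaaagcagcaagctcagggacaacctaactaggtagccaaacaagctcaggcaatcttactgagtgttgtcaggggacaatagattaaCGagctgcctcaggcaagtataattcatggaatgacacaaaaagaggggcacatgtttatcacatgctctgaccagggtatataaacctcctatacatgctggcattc
NR5A2, which codes for a nuclear receptor of liver and pancreas, had 0 CG in this stretch, and B3GNT6 and KRTAP19-1 had 1 each. For contrast, DYNC2I2 (chr9:128656848-128657047, minus strand) and ABCA5 (chr17:69327134-69327333, minus strand) are promoters with a strong Kbz peak over the TSS. Their Kbz folds were 11.78 and 11.645, in a list that reached 16.01.
DYNC2I2: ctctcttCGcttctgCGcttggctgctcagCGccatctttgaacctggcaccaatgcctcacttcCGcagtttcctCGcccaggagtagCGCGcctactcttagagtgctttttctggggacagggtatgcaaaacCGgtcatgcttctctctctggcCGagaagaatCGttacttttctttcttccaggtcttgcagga
ABCA5: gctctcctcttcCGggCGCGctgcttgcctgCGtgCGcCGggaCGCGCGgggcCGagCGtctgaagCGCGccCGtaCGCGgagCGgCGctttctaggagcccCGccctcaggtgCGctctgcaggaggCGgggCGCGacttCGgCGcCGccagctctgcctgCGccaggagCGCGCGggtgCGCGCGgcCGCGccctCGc
These held 10 and 36 CG dinucleotides, with CpG observed over expected of 0.85 for DYNC2I2 and 1.03 for ABCA5. The members picked by Kac fold had 1.03 (RNF111), 0.98 (BMF) and 0.40 (C6orf118). The low CpG content of NR5A2, B3GNT6 and KRTAP19-1 follows from the rule that picked them.

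Kac peaks over promoters lacking Kbz were weaker than those over promoters with Kbz. The peak caller's fold is the read density of a peak over its background, averaged over the whole broad peak, and it is given here as a percentile among all peaks of its own list. The SB Kac percentile of the members had a median of 60.2 (quartiles 43.6 and 69.8, n = 704), against 88.9 (quartiles 80.9 and 94.7, n = 10455) for promoters with Kbz. The promoters with Kbz only beside the TSS lay between, at a median of 80.4. In control cells, without SB, the medians stood at 59.0 for the members and 85.5 for promoters with Kbz. In fold itself the SB Kac medians were 3.22 and 4.95.

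The share of Kac-marked promoters lacking Kbz was highest where Kac fold was lowest. When the 11159 promoters were ranked by SB Kac fold and cut into 10 equal bins, 507 of the 1116 promoters in the lowest bin lacked Kbz, which is 45.4% (interval 42.5 to 48.4). The share was 10.8% in the second bin, 3.94% in the third and 1.70% in the fourth. In the 3 highest bins, with folds of 5.52 and above, 0 of 3347 promoters lacked Kbz, which allows a share of up to 0.0896%. Ranked by SB Kac peak length in place of fold, the share ran from 24.9% in the shortest bin to 2.51% in the longest.

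**Figure D1:**
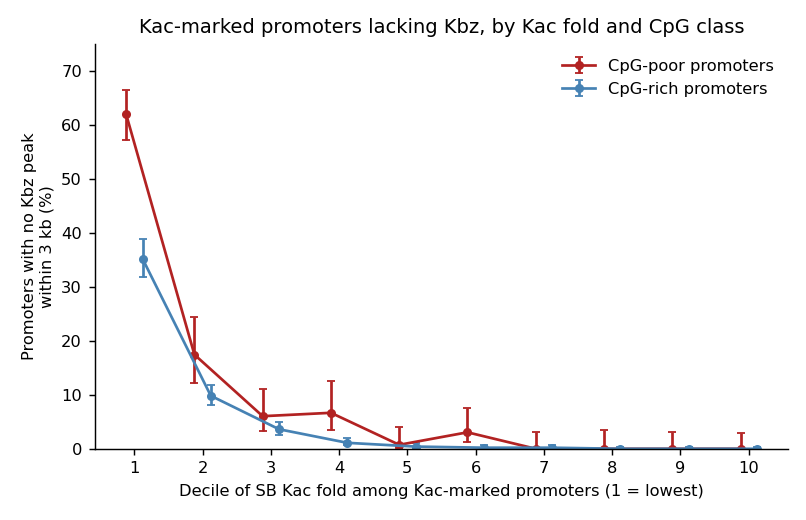
Percentage of Kac-marked promoters with no Kbz peak within 3 kb (y axis) in 10 bins of SB Kac fold from lowest to highest (x axis), for CpG-poor (red) and CpG-rich (blue) promoters. Points are shares and bars are Wilson 95% intervals for counting error. In the lowest bin 62.0% of CpG-poor and 35.2% of CpG-rich promoters lacked Kbz, and both shares were 0 in the 3 highest bins.

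RNF111, an E3 ubiquitin ligase of the TGF-beta pathway, had the strongest SB Kac peak of the set, with a fold of 5.28 (percentile 91.5) after SB and 4.48 (percentile 87.4) in control cells. Its nearest Kbz peak lay 53008 bp upstream of the TSS. BMF, a BH3-only promoter of apoptosis, followed with an SB Kac fold of 5.21 and a control fold of 4.93. C6orf118, an uncharacterised gene, had an SB Kac fold of 5.15 and a control fold of 3.52, so its rank in the list was higher after SB (percentile 90.5 against 66.5). OPN4, which codes for the photopigment melanopsin, and ENSG00000289258 start close together under the same Kac peak and count as 1 peak. Its fold was 5.03 after SB and 5.90 in control cells. After SB this peak spanned 12219 bp and overlapped Kbz, with the nearest Kbz 5548 bp upstream of the OPN4 TSS. EFEMP1, an extracellular matrix glycoprotein, had folds of 5.02 and 4.55.

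The members' Kac peaks were also shorter and sat less squarely over the TSS. The median SB Kac length was 1740 bp in members and 3031 bp in promoters with Kbz, and the median control Kac length 1966.5 bp and 2933 bp. The TSS lay under 250 bp from an edge of the SB Kac peak in 27.4% of members (interval 24.2 to 30.8) and in 2.83% of promoters with Kbz (2.53 to 3.17). The SB Kac peak reached further downstream than upstream of the TSS in 59.1% of members and 59.7% of promoters with Kbz, shares whose intervals overlap.

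**Figure D2:**
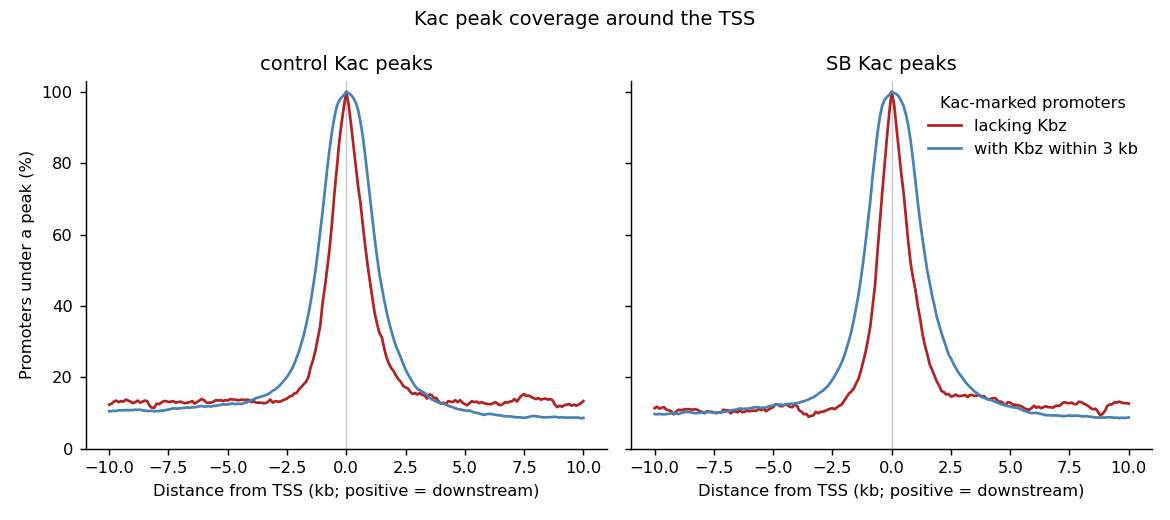
Percentage of promoters under a Kac peak (y axis) by distance from the TSS in kb (x axis), in control cells (left) and SB-treated cells (right). Red lines are the 704 promoters lacking Kbz and blue lines the 10455 with Kbz within 3 kb. Both reach 100% at the TSS because the rule required it, and the red curve is the narrower one in both conditions.

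A few members had very long Kac peaks. The SB Kac peak over BMF spanned 25371 bp (control 24846 bp), and Kbz began 3519 bp downstream of its TSS inside that peak. HOXA2, a homeobox gene of hindbrain patterning, had 19044 bp after SB and 13735 bp in control cells. ARHGAP23, a GTPase-activating protein, had 16741 bp and 6865 bp. C1QL4, of the C1q family, had 14505 bp and 4339 bp. In all 4 a Kbz peak overlapped the same SB Kac peak farther than 3 kb from the TSS, which occurred in 22 of 704 members (3.13%, interval 2.07 to 4.69).

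Between control and SB the Kac peaks of members shortened more often than those of promoters with Kbz when all were pooled, but not at every level of Kac fold. The SB Kac peak was shorter than the control peak in 399 of 704 members (56.7%, interval 53.0 to 60.3) and in 45.1% of promoters with Kbz (44.2 to 46.1). A length under 0.5 times that of control was seen in 16.1% of members and 3.90% of the others. In the lowest decile of SB Kac fold the shares with a shorter peak were 61.5% (57.2 to 65.7) of promoters lacking Kbz and 51.6% (47.6 to 55.5) of those with Kbz. In the second decile the order turned, at 40.5% (32.2 to 49.4) and 45.3% (42.3 to 48.4), with overlapping intervals. The median length ratio was 0.94 in members and 1.03 in the others. A peak's length moves with sequencing depth, which the lists do not give. With only peaks of −log10 q of at least 5 the shares with a shorter peak were 46.1% and 44%, for a set of promoters that differs from the 704.

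RINL, a guanine nucleotide exchange factor, had one of the smallest ratios: its Kac peak measured 2861 bp in control cells and 317 bp after SB (ratio 0.11). TNFRSF9, a T-cell co-stimulatory receptor, went from 3657 bp to 425 bp. CTSS, the lysosomal protease cathepsin S, went from 2168 bp to 280 bp. At the other end stood FREM1, an extracellular matrix protein, at 434 bp in control cells and 3429 bp after SB (ratio 7.90). LCAT, the enzyme that esterifies plasma cholesterol, went from 303 bp to 2388 bp, ACY3, an aminoacylase, from 377 bp to 2874 bp, and RNF224, a RING finger gene, from 1291 bp to 9755 bp. These 7 promoters were CpG-poor. They were picked from the extremes of the set, with 1 library on each side.

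CpG content set members apart from the other Kac-marked promoters, and the rule did not use it. A promoter was called CpG-rich with a CpG observed over expected of at least 0.6 and a GC content of at least 50%. Of the members 392 were CpG-rich (55.7%, interval 52.0 to 59.3) and 312 CpG-poor, while 87.8% (87.2 to 88.4) of promoters with Kbz were CpG-rich. Promoters that were not Kac-marked in both conditions were CpG-rich in 39.8% of cases. Read the other way, 312 of 1585 CpG-poor Kac-marked promoters lacked Kbz (19.7%, interval 17.8 to 21.7) and 392 of 9574 CpG-rich ones (4.09%, 3.72 to 4.51). With a −log10 q of at least 5 in all lists the CpG-rich shares were 83.0% and 89.1%, a far smaller gap.

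**Figure D3:**
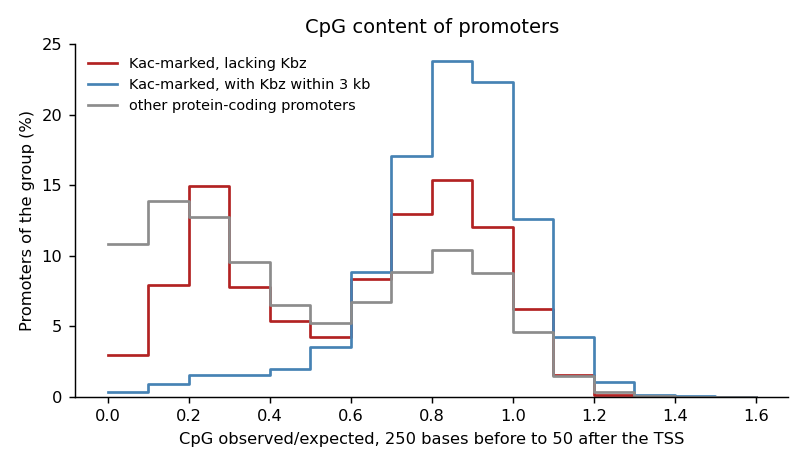
Percentage of promoters of each group (y axis) by CpG observed over expected in bins of 0.1 (x axis). Promoters lacking Kbz (red) have a second group of values at low CpG, with 14.9% between 0.2 and 0.3, where 1.56% of promoters with Kbz (blue) lie. The grey line gives promoters not Kac-marked in both conditions.

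Within narrow bins of Kac fold the difference in CpG content was present in some bins and not in others. In the lowest 20th part of SB Kac fold, 38.6% (interval 33.6 to 43.9) of 342 promoters lacking Kbz were CpG-rich, against 66.2% (59.7 to 72.2) of 216 with Kbz. In the next 20th part the shares were 67.3% and 77.4%, and their intervals (59.8 to 74.0 and 73.0 to 81.2) overlapped. In the third the shares were 70.4% and 87.7%, with intervals that did not meet. In the fourth they were 90.0% and 87.6%, with overlapping intervals. Within the first of these bins the median fold was still lower in promoters lacking Kbz (2.87 against 3.05), so fold was matched only in part.

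CpG-poor and CpG-rich members differed from each other. CpG-poor members had a median SB Kac percentile of 47.6 (quartiles 29.2 and 62.9, n = 312) and CpG-rich members 65.3 (53.9 and 73.2, n = 392). The median length of the SB Kac peak was 1541 bp in the CpG-poor and 1855 bp in the CpG-rich members. The SB minus control difference in fold percentile had a median of -5.38 in CpG-poor and 0.91 in CpG-rich members. The peak was shorter after SB in 64.7% of CpG-poor members (interval 59.3 to 69.8) and 50.3% of CpG-rich members (45.3 to 55.2). Among promoters with Kbz these shares were 51.9% (49.2 to 54.7) and 44.2% (43.2 to 45.2).

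Few members stood head to head with another gene. A protein-coding TSS on the opposite strand within 1 kb upstream was present at 24 of 704 members (3.41%, interval 2.30 to 5.02) and at 16.0% (15.3 to 16.7) of promoters with Kbz. Among CpG-rich promoters alone the shares were 5.87% (3.94 to 8.65) and 16.7% (15.9 to 17.5). Of 1692 Kac-marked head-to-head promoters 1.42% lacked Kbz, against 7.18% of the 9467 others. Within deciles of SB Kac fold the gap was smaller. In the lowest decile, which held 507 of the members, the shares were 2.96% (1.80 to 4.82) and 4.93% (3.47 to 6.95), with overlapping intervals. In the second decile they were 5.79% (2.83 to 11.5) and 11.5% (9.62 to 13.6). A member also had a TSS of any other annotated gene within 6 kb less often, in 41.9% of cases against 63.2%.

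Short sequence motifs were searched in the same 300-base windows, on both strands, and a match is only a match of letters. The ETS motif CCGGAAGT, bound by ETS-family activators, occurred in 15 of 704 members (2.13%, interval 1.30 to 3.49), in 10.3% of promoters with Kbz and in 6.15% of all protein-coding promoters. The YY1 motif AAGATGGCG occurred in 0.426%, 4.94% and 2.84% of the same groups. The NRF1 motif GCGCATGCG, of a factor for respiratory genes, occurred in 0.71%, 4.24% and 2.70%. Each of these 3 motifs contains CG, and in CpG-poor members each had 0 matches in 312, which allows up to 0.962%. In CpG-poor promoters with Kbz the ETS motif was at 5.26% (4.17 to 6.63) and YY1 at 2.59% (1.85 to 3.62). NRF1 was at 0.628% there (0.319 to 1.24), within what the members' count allows. Among CpG-rich promoters the shares in members and in those with Kbz were 3.83% and 11.02% for ETS. They were 0.765% and 5.26% for YY1, and 1.28% and 4.74% for NRF1.

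TATAAA and the AP-1 motif, which hold no CG, were instead more frequent in members than in promoters with Kbz. TATAAA, the core of the TATA box, was found in 9.94% of members (interval 7.95 to 12.4), 5.01% of promoters with Kbz and 9.73% of all promoters. The AP-1 motif TGANTCA was found in 7.39%, 3.62% and 5.44%. CCAAT was found in 29.8%, 36.7% and 36.0%, and the GC box GGGCGG, which holds a CG, in 62.2%, 74.5% and 61.3%. Within CpG-rich promoters the order of the GC box turned, at 88.5% (85.0 to 91.3) of members and 79.4% (78.6 to 80.3) of promoters with Kbz. The E-box CACGTG was found in 5.82%, 10.8% and 8.75%, and the cAMP response element TGACGTCA in 1.42%, 3.84% and 2.69%. The forkhead motif TGTTTAC was at 1.99% in members and 1.93% in promoters with Kbz, and the HNF1 motif GTTAATNAT and the HNF4 motif CAAAGTCCA matched 3 members each.

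Restricting the motif count to CpG-rich promoters in the lowest decile of SB Kac fold gave overlapping intervals for every motif named in this paragraph. There the ETS motif was at 5.35% (interval 3.15 to 8.94) of 243 promoters lacking Kbz and 6.04% (4.18 to 8.65) of 447 with Kbz. TATAAA was at 4.53% and 4.25%, and GGGCGG at 88.9% and 88.8%. The NRF1 motif was at 1.23% (0.421 to 3.57) and 3.8% (2.39 to 6.01), and the YY1 motif at 0.823% (0.226 to 2.95) and 2.46% (1.38 to 4.35). The AP-1 motif, more frequent in members when all were pooled, was at 2.88% (1.40 to 5.83) of promoters lacking Kbz and 3.36% (2.04 to 5.46) of those with Kbz.

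The distance to the nearest Kbz peak varied widely. Its median was 22291.5 bp over the 704 members (quartiles 9002 and 61989 bp), the smallest value being fixed by the rule. A Kbz peak lay within 10 kb of 203 members (28.8%, interval 25.6 to 32.3), over 50 kb away from 207 (29.4%, 26.2 to 32.9) and over 100 kb away from 110 (15.6%). The nearest peak was downstream in 41.2% (37.6 to 44.9). CpG-poor members were nearer to Kbz, at a median of 14223.5 bp, than CpG-rich members, at 30711 bp.

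The 4 most isolated members were genes of signalling and membrane proteins. PDGFD, a platelet-derived growth factor, had its nearest Kbz peak 1053801 bp away. GLRB, the beta subunit of the glycine receptor, had it 906648 bp away and PDGFC, another growth factor of the family, 802297 bp away, and both are neighbours on chromosome 4 that share this stretch. MME, the membrane peptidase neprilysin, had it 657619 bp away. PDGFC had the strongest SB Kac peak of these (percentile 81.8, 4573 bp) and PDGFD the weakest (percentile 56.8, 673 bp). All 4 were CpG-rich.

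The 3 kb limit divided promoters whose Kac ranks overlapped. Just inside the set lay ARSI, a sulfatase, with Kbz 3010 bp from the TSS, MMP19, a matrix metalloproteinase, at 3020 bp, NOXO1, a subunit of NADPH oxidase, at 3034 bp, and LACTBL1 at 3122 bp. Just outside lay SELPLG, a selectin ligand of leukocytes, at 3000 bp, TRARG1 at 2952 bp, NINJ2, an adhesion protein, at 2940 bp, and ZAP70, a T-cell kinase, at 2933 bp. Their SB Kac percentiles were 55.7, 17.8, 81.8 and 7.67 inside the limit and 68.9, 63.2, 42.3 and 25 outside it. The percentiles of the 4 inside and the 4 outside overlap.

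**Figure D4:**
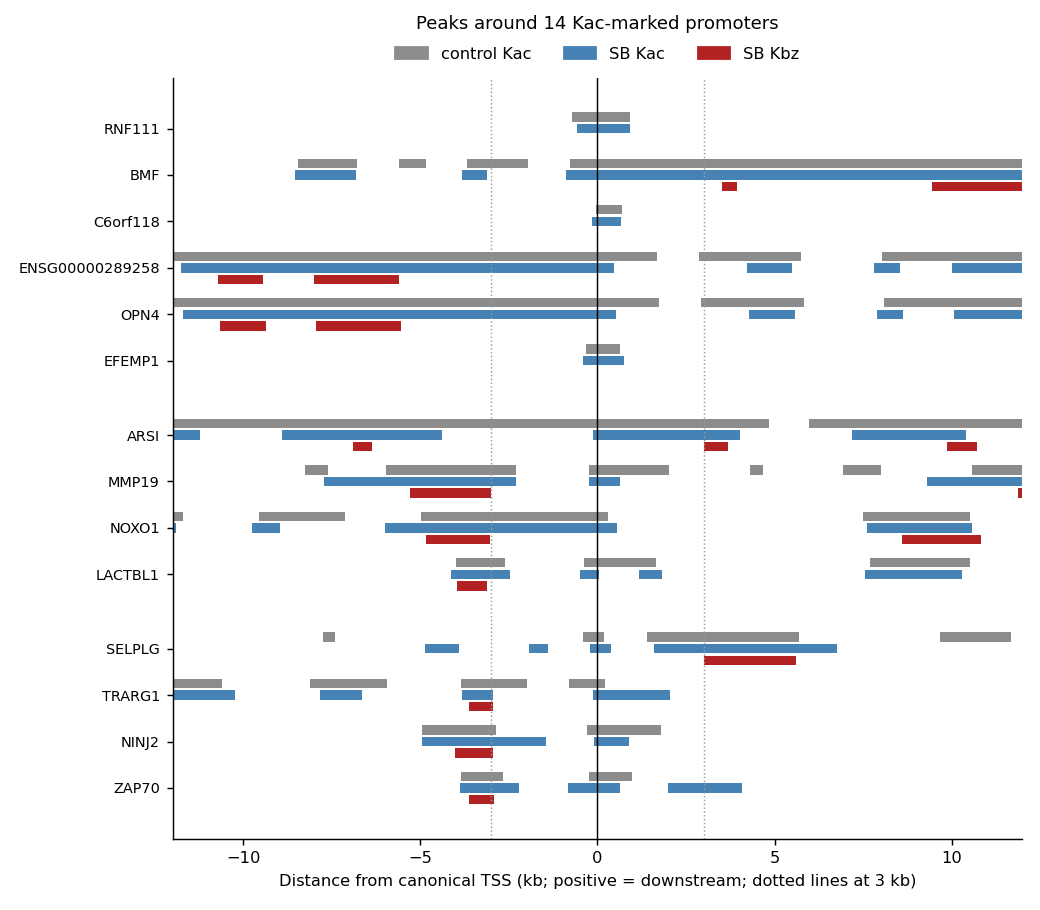
Peaks of control Kac (grey), SB Kac (blue) and SB Kbz (red) within 12 kb of the TSS of 14 promoters, by distance from the TSS in kb along the gene's direction (x axis). From the top: the 6 members with the highest SB Kac fold, the 4 members nearest to the 3 kb limit (dotted lines) and the 4 promoters just outside the set. RNF111, C6orf118 and EFEMP1 have 1 compact Kac peak in each condition and no Kbz in this window.

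Some genes whose canonical TSS lacked Kbz had it elsewhere. In 137 of 704 genes (19.5%, interval 16.7 to 22.5) a Kbz peak lay within 3 kb of another annotated TSS of the same gene, and in 249 (35.4%, 31.9 to 39.0) a Kbz peak lay somewhere between the gene's ends. In 448 genes (63.6%, 60.0 to 67.1) neither was the case. H3-3B, which codes for the replacement histone H3.3, is one of the former, with Kbz 3377 bp upstream of the canonical TSS. So the lack of Kbz describes 1 TSS and not always the gene.

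Gene lists are given by the number of members among the Kac-marked genes of each list, beside the 6.31% of all Kac-marked promoters. Of 36 lists 9 held no member. They included 6 lists of general cell machinery, besides germ line and testis genes (0 of 27), UGT, GST and SULT conjugation enzymes (0 of 16) and KLF and SP factors (0 of 11). None of 82 Kac-marked cytosolic ribosomal protein genes lacked Kbz (0%, which allows up to 3.66%), and none of 75 oxidative phosphorylation genes, 48 cyclin and cyclin-dependent kinase genes, 34 aminoacyl-tRNA synthetase genes, 33 proteasome genes and 27 RNA polymerase genes. For the synthetase, proteasome and RNA polymerase lists a count of 0 allows up to 8.82%, 9.09% and 11.1%. For the germ line, conjugation enzyme and KLF and SP lists it allows up to 11.1%, 18.75% and 27.3%. All of these are above 6.31%, so a lower share was not detectable there. For the cyclin list it allows up to 6.25%, and the Wilson interval reached 7.41%. Together the 9 lists had 353 Kac-marked entries. Mitochondrial ribosomal proteins had 1 of 75 (MRPL14, interval 0.236 to 7.17%) and spliceosome proteins 1 of 45 (SRSF12, interval 0.393 to 11.6%). Both intervals hold 6.31%. C2H2 zinc finger genes had 10 of 406 (2.46%, interval 1.34 to 4.47). The ribosomal protein lists also had strong Kac peaks, with a median SB Kac percentile of 97.6 for cytosolic ribosomal and 94.4 for mitochondrial ribosomal proteins.

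Shares above that of all promoters were seen in lists of receptors and secreted proteins. G protein-coupled receptors picked by symbol had 17 of 60 (28.3%, interval 18.5 to 40.8). ADGRV1, a very large adhesion receptor, had SB and control Kac percentiles of 83.1 and 69.4. CHRM3, a muscarinic acetylcholine receptor, had 81.9 and 87.2, GPR37 76.6 and 72.4, and GPR161, a receptor of the primary cilium, 76.4 and 78.9. HTR3A, which the symbol rule put in this list, is a ligand-gated channel. The Kac-marked genes of this list had a median SB Kac percentile of 78.3, below the 88.9 of promoters with Kbz.

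Complement and coagulation genes had 7 of 14 (interval 26.8 to 73.2%): THBD, F5, C2, F2, MASP1, F10 and CFB. THBD, the endothelial thrombin receptor, had a Kac percentile of 81.1 in control cells and 57.6 after SB. F5, coagulation factor V, went from 61.1 to 53.3, C2, a complement protease, from 74.9 to 50.4, and F2, prothrombin, from 55.8 to 47.6. The Kac-marked genes of this list had a median SB Kac percentile of 61.1, near the 60.2 of the members. THBD, F5, C2 and F2, named for the highest SB Kac fold among the list's members, were lower in rank after SB. The ranks of MASP1, F10 and CFB are not given here. Of the 7 members 1 was CpG-rich. Cytokine, chemokine and interferon genes had 9 of 52 (17.3%, interval 9.38 to 29.7). IL32 was at percentile 83.7 after SB and 78.5 in control cells, and ISG15, an interferon-induced ubiquitin-like protein, at 79.6 and 33.2. For all Kac-marked genes of the cytokine list the median SB Kac percentile was 81.7.

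**Figure D5:**
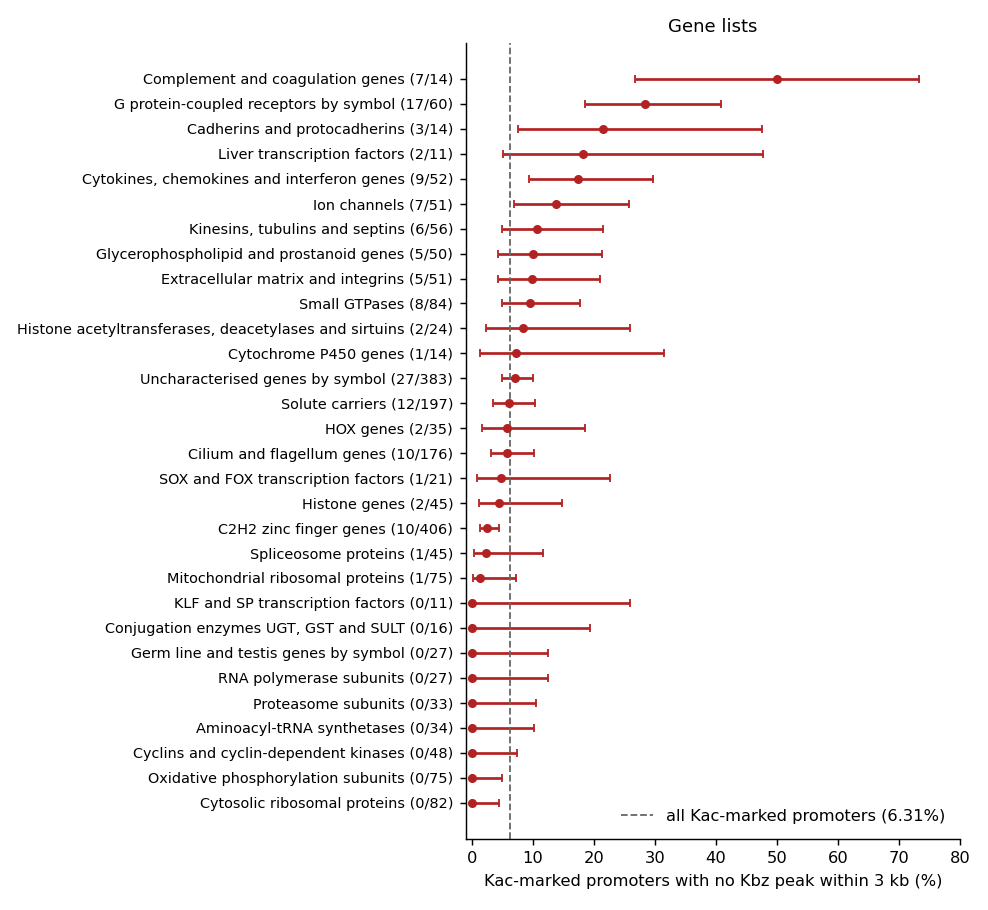
Percentage of Kac-marked promoters lacking Kbz (x axis) for the gene lists with at least 10 Kac-marked genes (y axis, with members over Kac-marked genes). Points are shares, bars are Wilson 95% intervals for counting error, and the dashed line marks the 6.31% of all Kac-marked promoters. Intervals of complement and coagulation genes, G protein-coupled receptors, cadherins, cytokines and ion channels lie above the line.

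Ion channels had 7 of 51 (13.7%, interval 6.81 to 25.7), led by SCN4B, a sodium channel beta subunit, at an SB Kac percentile of 70.7. Cadherins and protocadherins had 3 of 14 (CDH10, CDH23 and PCDHGC3), with an interval of 7.57 to 47.6%. Median SB Kac percentiles of the Kac-marked genes were 80.1 for ion channels and 77.1 for cadherins, below the 88.9 of promoters with Kbz. Intervals that held 6.31% were found for solute carriers (12 of 197), small GTPases (8 of 84), kinesins, tubulins and septins (6 of 56), extracellular matrix and integrin genes (5 of 51), cilium and flagellum genes (10 of 176) and HOX genes (2 of 35). Glycerophospholipid metabolism was among several pathways that the study linked to Kbz. The glycerophospholipid and prostanoid genes of the list used here had 5 of 50 (10.0%, interval 4.35 to 21.4). AGPAT2, an acyltransferase of phosphatidic acid synthesis, led them with percentiles of 79.1 after SB and 73.6 in control cells. Histone acetyltransferases, deacetylases and sirtuins had 2 of 24: KAT2B at SB and control percentiles of 64.0 and 74.7, and KAT8 at 42.9 and 27.8.

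Kac was less frequent in the liver lists below than at all protein-coding genes, counted at the canonical TSS only. Of 12 defining liver markers 1 had a Kac peak over the canonical TSS in both conditions (8.33%, against 55.9% of all protein-coding genes), and ALB, AFP, APOB and HNF4A had none. Of 37 liver plasma protein genes 2 were Kac-marked, ITIH4 and ITIH3, and both lacked Kbz. Of 25 liver transcription factors 11 were Kac-marked (44%, below the 55.9% of all protein-coding genes), and 2 of these, NR1H3 and NR5A2, were members. Of the blood cell and neuronal markers 6 of 25 each were Kac-marked (24%), and of the muscle markers 4 of 25 (16%). These shares lay below that of the liver transcription factors, but above those of the liver markers and plasma proteins (5.41%). What the unmarked liver genes mean for the list counts above, or for the identity of the cells, was not tested.

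The members were spread over the chromosomes. The share of Kac-marked promoters lacking Kbz ran from 4.48% on chromosome 19 (interval 3.24 to 6.16) to 8.63% on chromosome 18 (5.01 to 14.5), and these intervals overlap. The 704 members lay under 679 distinct SB Kac peaks, with 50 members sharing a peak with another member, so they are not all separate regions.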

How the data were processed

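The study's methods and the labels state that the authors digested chromatin with micrococcal nuclease, aligned reads to hg38 with Bowtie2 2.2.6, kept uniquely mapped reads, removed duplicates with SAMtools 0.1.19 and called peaks per library with MACS2 2.1.1. The broad setting and background track are not given in the sources used here. The deposited lists hold 70329 control Kac, 63282 SB Kac and 24308 SB Kbz peaks. Of these, 3 control Kac peaks lay outside the assembled chromosomes and were dropped. The deposited fold, a linear ratio, was ranked within its own list. Thresholds were set on the deposited −log10 q, and the strongest peaks taken by the deposited −log10 p. The lowest −log10 q was 1.31, so the lists reach past the false discovery rate stated in the methods. The deposited display score was not used. The lists carry no read totals, so depth is unknown.

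Canonical TSS came from GENCODE 44, and promoter sequence from hg38. Shares have Wilson 95% intervals, and a count of 0 allows up to 3 counts. Python 3.11.15, pandas 2.3.3, scipy 1.17.1 and bedtools 2.31.1 were used. On simulated data 1000 of 1000 promoters were given their planted class, and 0 members differed from those found by bedtools. The members, gene lists and motifs were chosen with earlier results of these data known. Named promoters were the 6 with the highest SB Kac fold, the 4 with the longest SB Kac peak, the 4 farthest from Kbz, 4 on either side of the limit, the 4 largest and 4 smallest length ratios, and up to 4 per list by SB Kac fold. Other genes named were the members of a list in full, or markers. The text describes only some of the promoters named per list, and among the others 1 promoter and 1 marker are not reported here. Bins of one 20th of fold, motifs in the lowest decile, 1 promoter per Kac peak and merging within 2 kb were added after seeing the data.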

Additional observations from a re-analysis of the deposited data

How the results depend on the processing

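With 1 library per group, leaving out a replicate was not possible, differences between lists cannot be set against replicate error, and depth is unknown. No paired analysis was possible because every condition had 1 library. No 2 peaks of a list lay within 1 kb (the smallest gap was 1121 bp), so the planned merging within 1 kb could not change a value and says nothing about stability. Of 78 recomputed values for 11 results, 31 stayed inside the counting interval of the reported value, or within 1.5 times it for the number of members, and 47 moved further. The settings change which promoters count as members, or how a feature is defined or ranked. The cause of each move was not tested.

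Cuts by q or by peak number were applied to all lists. A promoter could thus become a member when its Kbz peak was dropped. Percentiles were ranked anew within each shortened list. At −log10 q ≥ 5 there were 1383 members (17.3% of Kac-marked promoters), with a median SB Kac percentile of 42.6 and length of 2949 bp. Of these 83.0% were CpG-rich, 11.6% head to head, 46.1% shorter after SB, 51.9% over 50 kb from Kbz and 9.69% with Kbz at another TSS. With the 15000 peaks of lowest p in each list there were 277 (4.21%), at percentile 33.9 and 2949 bp, of which 76.2% were CpG-rich, 9.03% head to head, 48.4% shorter, 49.1% over 50 kb away and 13.4% with Kbz at another TSS. In both settings promoters with Kbz kept more CpG-rich (89.1% and 88.2%) and head-to-head promoters (17.6% and 17.5%). Their shares with a shorter peak (44% and 43.5%) lay inside the intervals of the members' shares. On the new ranks their median SB Kac percentiles were 75.7 and 71.3. At −log10 q ≥ 2 the share lacking Kbz was 7.4%, the percentile 52.3, the length 1933 bp, the CpG-rich share 63.3% and the share over 50 kb away 34.1%.

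With no Kbz within 1 kb as the rule these were 7.48% lacking Kbz, percentile 62.1, 1904 bp, 24.8% over 50 kb away and 29.8% with Kbz at another TSS. With 10 kb they were 4.49%, 1629 bp, 60.5% CpG-rich, 41.3% over 50 kb away and 13.2% with Kbz at another TSS. Genes with no other TSS within 6 kb gave 409 members (9.61%), 34.2% of them over 50 kb away. A TSS at least 250 bp inside both Kac peaks gave 466 members (4.46%), percentile 62.5, 2134.5 bp and 68.7% CpG-rich. Merging within 2 kb gave 6.96% and 2344 bp, and 1 promoter per Kac peak 6.95%. A window of 1000 bases to either side of the TSS called 45.2% of members CpG-rich, against 68.0% of promoters with Kbz. By length in place of fold, the lowest decile held 24.9% and the highest 2.51% lacking Kbz. Of 98 named promoters 9 had no SB Kac peak left at −log10 q ≥ 2 and 66 at 5. Of 121 recomputed percentiles of the rest, 79 stayed within 1.5 times the reported value.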
